A study of Mus musculus with 9 samples.

Results

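The genes described here are 52 genes of the mitotic spindle, the kinetochore, the spindle checkpoint and cytokinesis, taken by name from the gene tables of a study of the mouse retina. All 52 were found among the 53280 genes of the count table, and all 52 were among the 21150 genes whose counts were high enough to test. They were listed by function, with earlier results of these data known. The study compared whole neural retina at postnatal day 4 (P4) between mice that lack both copies of Opn4, which encodes the photopigment melanopsin, and their wildtype littermates. Both genotypes came from crosses of Opn4 heterozygotes, were kept under standard lighting of about 300 lux and were killed 6 to 7 hours after lights on. There were 5 knockout pools and 4 wildtype pools, and each pool held 4 retinas from 2 animals and was sequenced as 1 polyA RNA library. The labels give no sex, no litter of origin, no strain and no description of which part of Opn4 is deleted.

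A dividing cell builds the spindle from microtubules at its poles, attaches each chromosome to it through the kinetochore, and delays anaphase through the spindle checkpoint until every kinetochore is attached. The anaphase-promoting complex then releases separase, the chromatids part, and the central spindle and a ring of actin and myosin divide the cell. In the mouse retina at P4 the cells that do this are the late progenitors, which at this age give mainly rods, bipolar cells and Müller glia, while neurons that have left the cell cycle carry little of this RNA.

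Many genes of this kind are transcribed in G2 and mitosis, and a short promoter element named CHR (cell cycle genes homology region), often with CCAAT boxes upstream of it, is known for binding the DREAM and MuvB complexes that time this transcription. RefSeq promoter windows on GRCm38.p6, from 250 bases before to 50 bases after a transcript start, were found for 45 of the 52 genes. Those without an entry are Aurkb, Incenp, Kif20a, Pbk, Ska1, Spc24 and Tpx2. The next lines show 8 of the windows, one for each of 8 functional groups, from 130 bases before to 30 bases after the start. They were chosen with the genotype test described below. In each functional group the gene with a CHR core and the lowest adjusted p was taken. The 8 groups in which that value was lowest were kept. Each window shown thus holds a CHR core, which 30 of the 45 genes with a window have and 15 do not. Each is written 5′ to 3′ along the gene's own strand, with capitals for a CHR core (TTTGAA or TTCGAA, either strand) and for CCAAT (either strand, so also as ATTGG). The stretch shown for Mki67 has no CCAAT, and in Cdca8 the CHR core and one CCAAT overlap and are printed as 1 run of capitals.
Ttk (chr9:83834559-83834718, plus strand): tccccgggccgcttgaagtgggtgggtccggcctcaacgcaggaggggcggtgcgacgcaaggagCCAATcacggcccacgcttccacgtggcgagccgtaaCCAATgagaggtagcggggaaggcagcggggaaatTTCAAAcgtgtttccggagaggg
Kif23 (chr9:61946770-61946929, minus strand): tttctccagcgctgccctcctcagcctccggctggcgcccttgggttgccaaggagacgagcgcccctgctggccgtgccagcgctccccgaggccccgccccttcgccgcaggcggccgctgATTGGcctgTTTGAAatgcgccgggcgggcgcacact
Spc25 (chr2:69206184-69206343, minus strand): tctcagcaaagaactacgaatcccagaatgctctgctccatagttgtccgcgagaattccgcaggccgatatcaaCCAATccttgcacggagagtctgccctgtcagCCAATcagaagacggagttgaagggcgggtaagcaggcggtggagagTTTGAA
Cenpa (chr5:30666756-30666915, plus strand): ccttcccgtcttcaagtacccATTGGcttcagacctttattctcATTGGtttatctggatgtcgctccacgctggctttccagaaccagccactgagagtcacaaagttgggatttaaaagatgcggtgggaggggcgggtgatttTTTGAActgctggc
Prc1 (chr7:80294321-80294480, plus strand): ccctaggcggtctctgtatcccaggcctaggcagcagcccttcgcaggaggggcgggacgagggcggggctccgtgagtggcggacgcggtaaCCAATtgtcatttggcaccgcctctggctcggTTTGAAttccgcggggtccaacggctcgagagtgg
Espl1 (chr15:102296163-102296322, plus strand): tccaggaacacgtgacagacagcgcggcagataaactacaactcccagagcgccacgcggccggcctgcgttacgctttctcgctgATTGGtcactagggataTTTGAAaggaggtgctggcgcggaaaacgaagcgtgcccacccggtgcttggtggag
Cdca8 (chr4:124936888-124937047, minus strand): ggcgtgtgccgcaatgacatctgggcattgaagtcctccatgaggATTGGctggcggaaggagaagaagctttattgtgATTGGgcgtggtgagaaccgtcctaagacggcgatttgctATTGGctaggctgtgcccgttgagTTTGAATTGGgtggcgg
Mki67 (chr7:135716350-135716509, minus strand): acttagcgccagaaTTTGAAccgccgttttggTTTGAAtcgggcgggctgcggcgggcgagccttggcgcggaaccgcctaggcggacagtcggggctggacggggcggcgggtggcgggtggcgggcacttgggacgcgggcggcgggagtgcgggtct
The CHR core began at base +8 of Ttk, +3 of Kif23, +25 of Spc25, +17 of Cenpa and +14 of Cdca8, where +1 is the transcript start. It began at base -5 of Prc1 and -27 of Espl1, and Mki67 had 2 cores, at -116 and -98. Of the 50 windows of the mitotic genes, 33 held a CHR core (66.0%), against 19.2% of the 32851 windows of all genes. Counted only from 60 bases before to 50 after the start, the shares were 58.0% of the windows of the mitotic genes and 5.90% of all windows. CCAAT stood in 68.0% of the mitotic windows and 37.4% of all windows, and a CHR core together with a CCAAT in 56.0% and 7.52%. The E2F letters TTTGGCG or TTTCGCG, searched on both strands, stood in 6% of the mitotic windows and 2.37% of all windows. These are matches of letters in a reference sequence, and neither binding nor promoter activity was measured in these retinas.

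RNA of the mitotic genes was lower in the Opn4 knockout retina, across every functional group. Of the 52 genes, 48 were lower in knockout (edgeR quasi-likelihood test, Benjamini-Hochberg adjusted p under 0.05), none was higher, and 4 did not pass the test: Aspm, Bub3, Kif20b and Pttg1. Among all 21150 genes tested, 2.25% were called lower and 1.34% higher. The log2 fold change, knockout over wildtype, was negative for all 52 genes, with a median of -0.58, quartiles of -0.66 and -0.50 and a range from -0.999 for Aunip to -0.15 for Bub3. The median over all tested genes was 0.0012. At the median gene 66.9% of the wildtype CPM (counts scaled to a common library size) remained, and the lowest and highest remainders were 49.96% and 90.02%. In whole retina, fewer cells in division and less of this RNA in each dividing cell cannot be told apart.

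The knockout and wildtype pools were separated at nearly every gene. For 49 of the 52 genes all 5 knockout pools lay below all 4 wildtype pools, which held for 4.37% of all tested genes, while the reverse order, found for 3.92% of all tested genes, held for none of the 52. Together the 52 genes took 0.176, 0.170, 0.200, 0.204 and 0.196% of all counts in knockout pools 1 to 5, against 0.280, 0.294, 0.264 and 0.271% in wildtype pools 1 to 4. That is 0.189 ± 0.015% in knockout (SD, n = 5) and 0.277 ± 0.013% in wildtype (SD, n = 4), and the lowest wildtype share was 1.3 times the highest knockout share. The changes were of similar size: 47 of the 52 genes had a log2 fold change of -0.4 or below, and 10 had one of -0.7 or below.

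**Figure D1:**
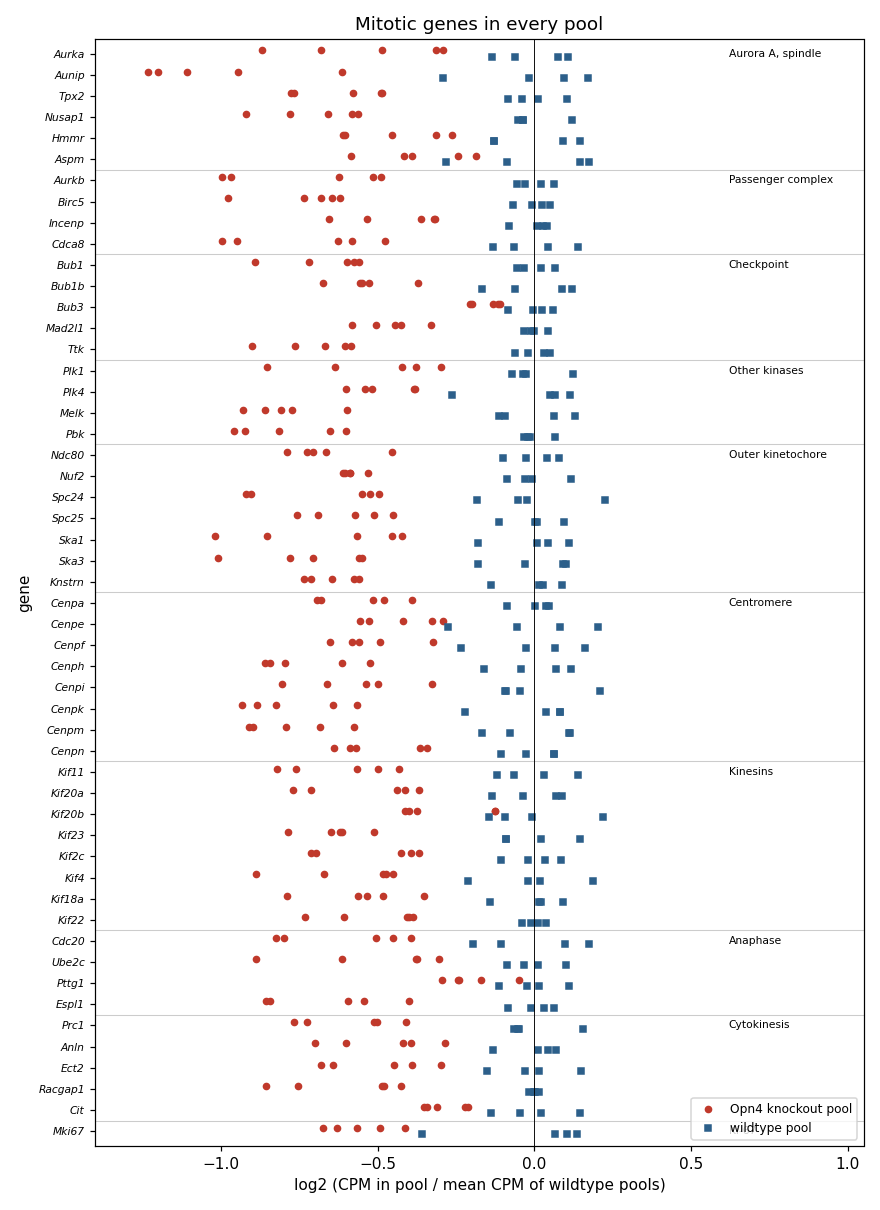
Each row is 1 of the 52 mitotic genes and each point 1 pool, as the log2 ratio of its CPM to the mean CPM of the wildtype pools (horizontal axis); red circles are Opn4 knockout pools, blue squares wildtype pools, and grey lines part the functional groups. In 49 rows the circles lie wholly left of the squares, and the circles and squares overlap in Aspm, Kif20b and Pttg1.

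**Figure D2:**
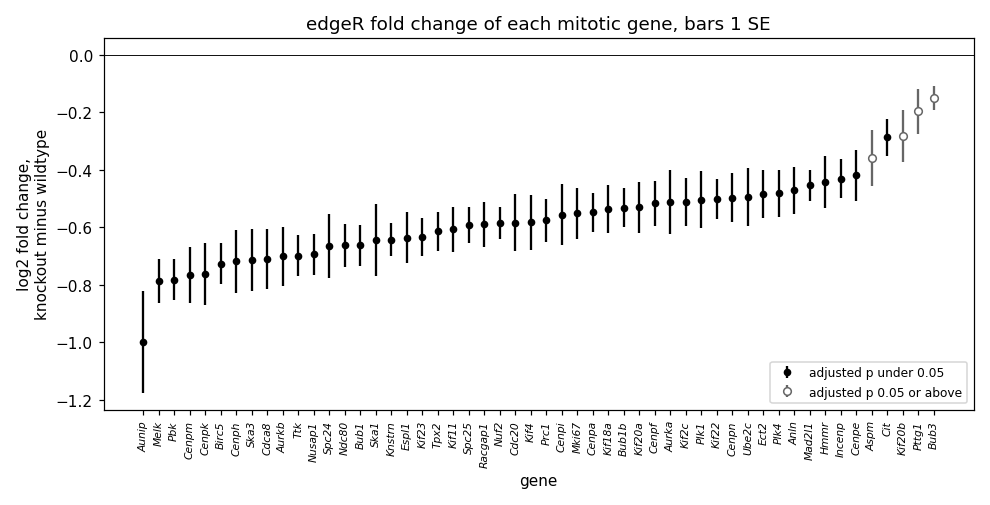
The log2 fold change of each mitotic gene, knockout minus wildtype, from the edgeR fit over 5 knockout and 4 wildtype pools, with bars of 1 standard error and genes in order of size. Filled points are the 48 genes with an adjusted p under 0.05 and open points the 4 others, and the values run from -0.999 for Aunip to -0.15 for Bub3.

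Of 6 genes of Aurora A and spindle assembly, 5 were lower, with a median log2 fold change of -0.56. Nusap1, which bundles microtubules around chromosomes, had 47.6, 43.2, 55.4, 54.6 and 51.8 CPM in knockout pools 1 to 5, against 79.8, 88.9, 79.7 and 78.9 CPM in wildtype pools 1 to 4. Its log2 fold change was -0.69 (SE 0.07, adjusted p = 0.000198), and every knockout pool lay below every wildtype pool, among which pool 2 stood highest. Tpx2, which brings Aurora A to the spindle and activates it, had 58.9, 58.5, 67.2, 71.5 and 71.5 CPM in knockout pools 1 to 5, against 97.6, 108, 94.6 and 101 CPM in wildtype pools 1 to 4. The groups did not overlap for Tpx2 either, and its log2 fold change was -0.61 (SE 0.07, adjusted p = 0.000289). Aunip, whose product binds Aurora A, had the largest change of the 52 genes and the lowest level, with 1.202, 1.51, 0.984, 1.07 and 1.01 CPM in knockout pools 1 to 5, against 1.89, 2.29, 2.602 and 2.47 CPM in wildtype pools 1 to 4. All its knockout pools were below all its wildtype pools, at a log2 fold change of -0.999 (SE 0.18, adjusted p = 0.00582). Aurka, the Aurora A kinase itself, had a log2 fold change of -0.51 (SE 0.11, adjusted p = 0.0223), and Hmmr, a microtubule-binding spindle protein, one of -0.44 (SE 0.09, adjusted p = 0.0136). Neither Aurka nor Hmmr passed without wildtype pool 1 or without wildtype pool 2 (adjusted p 0.0502 to 0.0772).

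Aspm, a spindle pole protein whose loss in humans causes microcephaly, did not pass the test. It had 44.9, 39.3, 51.8, 49.7 and 44.1 CPM in knockout pools 1 to 5, against 65.2, 66.5, 48.4 and 55.4 CPM in wildtype pools 1 to 4. Wildtype pool 3 was below knockout pools 3 and 4, and the groups overlapped. The log2 fold change of Aspm was -0.36 (SE 0.10, adjusted p = 0.0662), and without wildtype pool 3 it was -0.44 (adjusted p = 0.018).

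All 4 genes of the chromosomal passenger complex, which corrects wrong attachments and later directs cytokinesis, were lower, at a median log2 fold change of -0.71. Birc5, or survivin, had 20.2, 17.1, 21.01, 21.9 and 21.5 CPM in knockout pools 1 to 5, against 33.5, 34.2, 34.9 and 32.1 CPM in wildtype pools 1 to 4. Knockout pool 2 was the lowest and no pool of one genotype reached the other, at a log2 fold change of -0.73 (SE 0.07, adjusted p = 0.000195). Cdca8, or borealin, had 22.5, 21.8, 28.2, 29.03 and 31.2 CPM in knockout pools 1 to 5, against 39.7, 47.8, 44.8 and 41.5 CPM in wildtype pools 1 to 4. Its groups did not overlap, and its log2 fold change was -0.71 (SE 0.10, adjusted p = 0.00177). Incenp, the scaffold of the complex, had 48.1, 44.2, 55.7, 54.2 and 55.9 CPM in knockout pools 1 to 5, against 70.1, 71.6, 65.7 and 70.9 CPM in wildtype pools 1 to 4. Here the gap was smaller but still complete, with a log2 fold change of -0.43 (SE 0.07, adjusted p = 0.00296). Aurkb, the kinase of the complex, had a log2 fold change of -0.70 (SE 0.10, adjusted p = 0.00177).

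Of 5 checkpoint genes, 4 were lower, with a median log2 fold change of -0.53. Ttk, the kinase also called Mps1 that starts the checkpoint signal, had 14.6, 16.02, 18.1, 17.1 and 17.9 CPM in knockout pools 1 to 5, against 27.7, 28.1, 26.8 and 26.01 CPM in wildtype pools 1 to 4. Each knockout pool was well under the lowest wildtype pool, and the log2 fold change was -0.70 (SE 0.07, adjusted p = 0.000198). Bub1, a kinase recruited to unattached kinetochores, had 19.9, 22.4, 24.7, 25.02 and 24.4 CPM in knockout pools 1 to 5, against 37.4, 38.6, 35.5 and 36.03 CPM in wildtype pools 1 to 4. It showed the same separation, with a log2 fold change of -0.66 (SE 0.07, adjusted p = 0.000237). Bub1b, or BubR1, had a log2 fold change of -0.53 (SE 0.07, adjusted p = 0.000779), and Mad2l1, or Mad2, which holds Cdc20 inactive, one of -0.45 (SE 0.05, adjusted p = 0.000334). Bub3, which brings Bub1 and BubR1 to the kinetochore, had 90.3, 90.8, 96.6, 95.01 and 96.3 CPM in knockout pools 1 to 5, against 106, 109, 104 and 98.2 CPM in wildtype pools 1 to 4. Its pools did not overlap, but the difference was the smallest of the 52 and did not pass the test (log2 fold change -0.15, SE 0.04, adjusted p = 0.0715).

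The 4 other mitotic kinases were all lower, at a median log2 fold change of -0.64. Pbk, a kinase active in mitosis, had 40.7, 39.8, 50.99, 43.9 and 49.2 CPM in knockout pools 1 to 5, against 76.2, 75.4, 80.9 and 76.5 CPM in wildtype pools 1 to 4. The highest knockout pool stood well below the lowest wildtype pool, and the log2 fold change was -0.78 (SE 0.07, adjusted p = 0.000104). Melk, a kinase that peaks in mitosis, had 20.1, 19.2, 20.8, 24.1 and 21.3 CPM in knockout pools 1 to 5, against 34.1, 39.9, 38.1 and 33.7 CPM in wildtype pools 1 to 4. Its groups were as far apart, at a log2 fold change of -0.79 (SE 0.08, adjusted p = 0.000162). Plk1, the polo kinase that acts at poles and kinetochores, had a log2 fold change of -0.50 (SE 0.10, adjusted p = 0.0116), and Plk4, which starts centriole duplication, one of -0.48 (SE 0.08, adjusted p = 0.0046).

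All 7 genes of the outer kinetochore, the part that grips microtubules, were lower, and they lay in a narrow range, from -0.71 to -0.58 with a median of -0.64. Knstrn, a microtubule-end and kinetochore protein, had 36.05, 36.5, 40.7, 40.3 and 38.3 CPM in knockout pools 1 to 5, against 61.1, 63.7, 60.6 and 54.4 CPM in wildtype pools 1 to 4. No knockout pool reached the wildtype range, and the log2 fold change was -0.64 (SE 0.06, adjusted p = 0.000104). Nuf2, a subunit of the Ndc80 complex, had 24.04, 24.05, 23.8, 23.7 and 25.1 CPM in knockout pools 1 to 5, against 35.4, 39.2, 35.98 and 34.1 CPM in wildtype pools 1 to 4. The knockout pools lay within a very small range, and the log2 fold change was -0.58 (SE 0.06, adjusted p = 0.000134). Spc25, another subunit of that complex, had 67.3, 64.3, 79.5, 76.1 and 73.00 CPM in knockout pools 1 to 5, against 109, 109, 116 and 100.5 CPM in wildtype pools 1 to 4. Its log2 fold change was -0.59 (SE 0.06, adjusted p = 0.000237) with no overlap. The remaining subunits Ndc80 and Spc24 had log2 fold changes of -0.66 and -0.67, and Ska1 and Ska3, of the complex that follows shortening microtubule ends, -0.64 and -0.71.

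All 8 centromere genes were lower, with a median log2 fold change of -0.55. Cenpa, the histone H3 variant that marks the centromere, had 29.2, 29.4, 33.03, 36.1 and 33.8 CPM in knockout pools 1 to 5, against 47.2, 48.4, 48.8 and 44.4 CPM in wildtype pools 1 to 4. The groups were apart, and the log2 fold change was -0.55 (SE 0.07, adjusted p = 0.000561). Cenpm, a subunit of the inner kinetochore network on Cenpa chromatin, had 6.24, 6.72, 6.19, 7.805 and 7.24 CPM in knockout pools 1 to 5, against 12.6, 10.4, 12.6 and 11.03 CPM in wildtype pools 1 to 4. Its separation was complete at a low level, with a log2 fold change of -0.77 (SE 0.10, adjusted p = 0.000735). Cenpf, a large kinetochore protein of G2 and mitosis, had 79.8, 75.9, 84.8, 95.3 and 81.00 CPM in knockout pools 1 to 5, against 125, 134, 101 and 117 CPM in wildtype pools 1 to 4. Wildtype pool 3 was the nearest to the knockout pools without reaching them, and the log2 fold change was -0.52 (SE 0.08, adjusted p = 0.00226). The inner kinetochore genes Cenph, Cenpi, Cenpk and Cenpn had log2 fold changes of -0.72, -0.56, -0.76 and -0.50, and Cenpe, a kinesin that moves chromosomes to the spindle equator, had one of -0.42 (SE 0.09, adjusted p = 0.0159). Cenpe did not pass without wildtype pool 1 (adjusted p = 0.0585) or without wildtype pool 2 (adjusted p = 0.0534).

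Of 8 kinesins, 7 were lower, with a median log2 fold change of -0.53. Kif23, the kinesin of the centralspindlin complex at the midzone, had 30.8, 27.4, 30.7, 33.1 and 30.1 CPM in knockout pools 1 to 5, against 47.96, 52.2, 44.4 and 44.4 CPM in wildtype pools 1 to 4. The knockout pools were all lower than the wildtype pools, and the log2 fold change was -0.63 (SE 0.07, adjusted p = 0.000217). Kif11, or Eg5, which pushes the spindle poles apart, had 61.02, 63.7, 72.99, 79.99 and 76.4 CPM in knockout pools 1 to 5, against 103, 119, 99.4 and 110.3 CPM in wildtype pools 1 to 4. Knockout pools 1 and 2 were the lowest, and the log2 fold change was -0.61 (SE 0.08, adjusted p = 0.000854). Kif20b, a kinesin of late cytokinesis, had 20.5, 20.3, 24.8, 24.8 and 20.9 CPM in knockout pools 1 to 5, against 26.9, 31.5, 24.5 and 25.4 CPM in wildtype pools 1 to 4. Knockout pools 3 and 4 were above wildtype pool 3, and the test was not passed (log2 fold change -0.28, SE 0.09, adjusted p = 0.123). The log2 fold change was -0.53 for Kif20a, which carries the passenger complex to the midzone, -0.51 for the microtubule depolymerase Kif2c, -0.54 for Kif18a, which limits chromosome oscillation, and -0.58 and -0.50 for the chromosome-bound Kif4 and Kif22.

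Of the 4 genes that act at anaphase, 3 were lower, with a median log2 fold change of -0.54. Espl1, the protease separase that cuts cohesin, had 19.01, 18.8, 22.6, 25.8 and 23.4 CPM in knockout pools 1 to 5, against 34.8, 33.8, 32.1 and 35.6 CPM in wildtype pools 1 to 4. Its groups did not overlap, and its log2 fold change was -0.64 (SE 0.09, adjusted p = 0.00144). Cdc20, the mitotic activator of the anaphase-promoting complex, had 38.3, 37.7, 50.8, 48.7 and 47.01 CPM in knockout pools 1 to 5, against 61.9, 71.4, 75.3 and 58.2 CPM in wildtype pools 1 to 4. It was lower in each knockout pool than in any wildtype pool, at a log2 fold change of -0.58 (SE 0.10, adjusted p = 0.005). Pttg1, or securin, which holds separase inactive, had 10.03, 10.4, 10.9, 10.4 and 11.9 CPM in knockout pools 1 to 5, against 13.3, 12.1, 12.4 and 11.4 CPM in wildtype pools 1 to 4. Knockout pool 5 was above wildtype pool 4, and the difference did not pass the test (log2 fold change -0.20, SE 0.08, adjusted p = 0.222). The ubiquitin-conjugating enzyme Ube2c of the anaphase-promoting complex had a log2 fold change of -0.50 (SE 0.10, adjusted p = 0.014).

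All 5 genes of cytokinesis were lower, at a median log2 fold change of -0.49. Prc1, which crosslinks the microtubules of the central spindle, had 64.4, 62.6, 74.6, 75.2 and 80.04 CPM in knockout pools 1 to 5, against 103, 118, 103 and 102 CPM in wildtype pools 1 to 4. Wildtype pool 2 stood highest and no pools overlapped, with a log2 fold change of -0.58 (SE 0.07, adjusted p = 0.000779). Racgap1, the partner of Kif23 in centralspindlin, had 69.6, 64.8, 84.3, 83.8 and 87.5 CPM in knockout pools 1 to 5, against 116, 118, 117 and 119 CPM in wildtype pools 1 to 4. Its wildtype pools were nearly equal, its knockout pools were lowest in pools 1 and 2, and its log2 fold change was -0.59 (SE 0.08, adjusted p = 0.000935). The log2 fold changes were -0.47 for the ring scaffold Anln, -0.49 for Ect2, which starts the ring at the equator, and -0.29 (SE 0.06, adjusted p = 0.0264) for Cit, the citron kinase of the midbody. Cit did not pass without knockout pool 1, 2 or 4 or without wildtype pool 2 or 4 (adjusted p 0.0569 to 0.0824). Mki67, the proliferation antigen that coats mitotic chromosomes and the most abundant of the 52 in CPM, had 231, 224, 254, 269 and 241 CPM in knockout pools 1 to 5, against 384, 393, 279 and 374 CPM in wildtype pools 1 to 4. Wildtype pool 3 was far below the other wildtype pools but still above knockout pool 4, the highest of its group, and the log2 fold change was -0.55 (SE 0.09, adjusted p = 0.00335).

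Further mitotic genes, listed by function with earlier results of these data known, changed in part. Of 97 such genes 96 were in the count table and tested, 46 were lower in knockout and none was higher, with a median log2 fold change of -0.21. Over all tested genes 2.25% were lower and 1.34% higher, which is also the background of the counts by group below. Among other kinetochore genes 18 of 30 were lower (median -0.43), and among other spindle genes 18 of 35 (median -0.25). The counts were 6 of 13 for other cytokinesis genes (median -0.05) and 4 of 18 for the anaphase-promoting complex and its partners (median -0.06). Kntc1, of the checkpoint complex that recruits dynein, had a log2 fold change of -0.71 (SE 0.10, adjusted p = 0.00154), and the inner kinetochore gene Cenpp one of -0.70 (SE 0.12, adjusted p = 0.00465). The microtubule-binding Gtse1 had one of -0.77 (SE 0.10, adjusted p = 0.00103), the centrosome kinase Nek2 one of -0.68 (SE 0.10, adjusted p = 0.0015), and Spag5, or astrin, one of -0.68 (SE 0.07, adjusted p = 0.000264). Among the genes grouped under cytokinesis, Cdca3 had -0.71 (SE 0.08, adjusted p = 0.000316), Iqgap3 -0.69 (SE 0.09, adjusted p = 0.000725) and the midbody protein Cep55 -0.65 (SE 0.08, adjusted p = 0.000501). In the group of the anaphase-promoting complex, Cdca5, or sororin, which protects cohesin, had -0.71 (SE 0.12, adjusted p = 0.0039), Fbxo5, or Emi1, an inhibitor of the anaphase-promoting complex, -0.63 (SE 0.09, adjusted p = 0.00156), and Ube2s, which extends its ubiquitin chains, -0.23 (SE 0.06, adjusted p = 0.0367). The call of Ube2s was lost without knockout pool 1, 2 or 4 or wildtype pool 1, 2 or 3 (adjusted p 0.0608 to 0.1), without both knockout pools 1 and 2 (0.17), without the filter on low counts (0.0664), on the rescaled TPM (0.19) and in the authors' deposited table (q = 0.44). The last of the 4 was Anapc5, a subunit of the complex, at -0.20 (SE 0.04, adjusted p = 0.00782), named after its value was seen, and the other 13 subunits listed did not pass the test. Clasp1, which steadies microtubule ends, was the one gene of the 96 with all knockout pools above all wildtype pools, an order found for 3.92% of all tested genes. The groups all but touched, at 276.93 CPM in knockout pool 1 and 276.91 CPM in wildtype pool 2. Clasp1 was named after its values were seen, and it did not pass the test (log2 fold change 0.09, SE 0.05, adjusted p = 0.382).

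**Figure D3:**
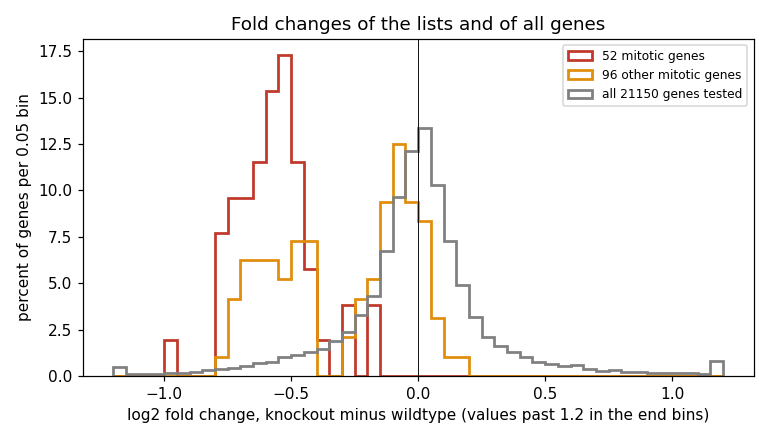
Log2 fold changes, knockout minus wildtype (horizontal axis), as the percent of genes per bin of 0.05 (vertical axis) for the 52 mitotic genes (red), 96 other mitotic genes (orange) and all 21150 genes tested (grey). The red outline lies wholly below 0 around a median of -0.58, the orange one has a part around -0.6 and a part near 0, and the grey one centres on 0.

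The CHR core was also unevenly spread over these other mitotic genes. Among the 46 that were lower, 39 had RefSeq windows and 29 of their 42 windows held a core (69.0%), against 8 of 54 windows (14.8%) of the 44 genes with windows among the 50 that did not pass the test. Near the start the shares were 52.4% and 7.41%. The groups compared here were split by the test result in these same data, and the difference in their shares was not tested. Within the 52 genes the changes were of like size with and without a core: 27 of 30 genes with a core were lower, at a median log2 fold change of -0.55, and 14 of 15 genes with a window and no core were lower, at a median of -0.58. Of the 4 genes that did not pass the test, Aspm, Bub3 and Kif20b had a core and Pttg1 had none.

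Levels per transcript length came from the rescaled TPM (transcript abundance per length and library, summed over the transcripts of a gene). In this unit Spc25 was the most abundant of the 52, at 104 ± 9.36 TPM in knockout and 157 ± 9.53 TPM in wildtype. It was followed by Ube2c at 68.9 ± 11.9 TPM in knockout and 95.5 ± 5.57 TPM in wildtype, Pbk at 52.9 ± 8.35 TPM in knockout and 89.7 ± 4.19 TPM in wildtype, Bub3 at 77.5 ± 3.87 TPM in knockout and 87.6 ± 3.63 TPM in wildtype and Racgap1 at 60.7 ± 12.1 TPM in knockout and 87.4 ± 5.36 TPM in wildtype, and in wildtype the ranges of mean ± SD of neighbours in this order overlapped among these 4. In knockout Bub3 came directly after Spc25. At the other end stood Ska1 at 6.23 ± 1.51 TPM in knockout and 10.1 ± 0.388 TPM in wildtype, Plk4 at 6.48 ± 0.856 TPM in knockout and 8.65 ± 0.727 TPM in wildtype, Cenpi at 5.25 ± 0.887 TPM in knockout and 7.93 ± 1.15 TPM in wildtype and Aunip at 1.82 ± 0.361 TPM in knockout and 3.66 ± 0.536 TPM in wildtype, and the wildtype means of Spc25 and Aunip differed by 42.8 times. Large and small changes were found at high and low levels alike: the Spearman correlation of log2 fold change with mean TPM was -0.015 across the 52 genes, which share all libraries.

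The direction was the same in the other deposited quantifications, in which fewer genes were called. On gene-summed TPM, limma called 38 of the 52 lower and none higher, with a median of -0.56 on the log2(TPM + 0.5) scale, against 1.54% of all 15296 genes lower and 0.621% higher. Among those that were not called there, Racgap1 had an adjusted p of 0.0646 and Espl1 one of 0.0792. In the authors' deposited table, q was under 0.05 for 12 of the 52, all of them lower, against 0.815% of its 17414 genes lower and 0.649% higher, and the median of its effects over the 52, turned to log2, was -0.45. These 12 are Aunip, Birc5, Incenp, Cdca8, Bub1b, Nuf2, Cenph, Cenpm, Cenpn, Kif23, Espl1 and Anln, and 11 of them were called in all 3 sources. The largest effect among them in the authors' deposited table was -0.91 for Aunip (q = 0.00467), and the lowest q was 0.000431 for Bub1b at -0.54. DESeq2 on the counts called 51 lower and none higher, where it called 3.82% of all genes lower and 3.31% higher, and left out Pttg1 (adjusted p = 0.13).

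Split by transcript, 171 rows of the 52 genes were high enough to test, 150 had a negative difference, 12 were called lower and none higher, where 0.123% of all 48763 rows were lower and 0.0533% higher. The rows called belong to Bub1, Cenpa, Cenph, Cenpm, Knstrn, Mad2l1, Melk, Nusap1, Pbk, Racgap1, Spc25 and Ttk. The largest of these differences was a minor Cenpa transcript, at 0.804 ± 0.119 TPM in knockout (SD, n = 5) and 2.75 ± 0.214 TPM in wildtype (SD, n = 4), with a difference of -1.32 on the log2(TPM + 0.5) scale (limma adjusted p = 0.0352). The table lists no transcript identifiers, so this transcript cannot be named here.

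Knockout pools 1 and 2 were lower than the other knockout pools at most of the 52 genes. Relative to the wildtype mean, the median log2 ratio of the 52 genes was -0.72 in knockout pools 1 and 2, -0.49 in pool 3, -0.47 in pool 4 and -0.49 in pool 5. One of those 2 pools was the lowest knockout pool for 48 of the 52 genes. The summed CPM of the 11 lens markers was highest in the same pools, at 19.9 and 17.9 CPM. It was 9.90 to 10.96 CPM in the other knockout pools and 8.34 to 10.3 CPM in wildtype pools. In knockout pools 1 and 2, 1 marker each was at 0, against 2 or 3 in the other knockout pools and 2 or 3 in wildtype. Cryaa, Cryab, Crybb3 and Cryba1 were highest in knockout pools 1 and 2, but not every marker rose there. Mip was at 1.02 and 0.75 CPM in these pools and at 0.43 to 1.06 CPM in wildtype pools. Bfsp1 was at 2.27 and 2.24 CPM in these pools, within the wildtype range, which reached 2.60 CPM in pool 3. Of 7 lens markers tested, Cryaa and Cryab were higher in knockout. Cryaa reached 4.65 and 3.28 CPM in knockout pools 1 and 2. It was at 0.20, 0.09 and 0.74 CPM in knockout pools 3 to 5 and at 0.08 to 0.12 CPM in wildtype pools. Rod genes were also highest in knockout pools 1 and 2, and 8 of 10 were higher in knockout (median log2 fold change 0.58), where 1.34% of all tested genes were higher. Without both pools 44 of the 52 genes were lower, where 1.65% of all genes were lower and 0.627% higher, the median log2 fold change was -0.48, and Aurka, Hmmr, Cenpe and Cit no longer passed (adjusted p 0.0523, 0.0659, 0.0837 and 0.118).

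**Figure D4:**
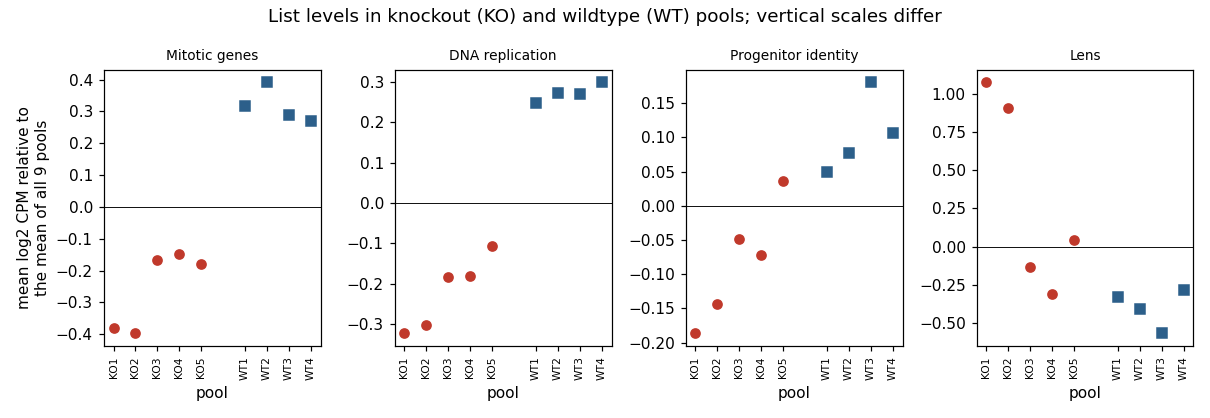
Mean log2 CPM of 4 gene lists in each pool, relative to the mean of all 9 pools (vertical axis, scales differ), with red circles for knockout pools 1 to 5 and blue squares for wildtype pools 1 to 4. The 52 mitotic genes lie between -0.40 and -0.15 in knockout pools and between 0.27 and 0.39 in wildtype pools, and the lens list is highest in knockout pools 1 and 2.

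Genes of DNA replication were lower as well, where 2.25% of all tested genes were lower and 1.34% higher. Of 40 replication genes 34 were lower, with a median log2 fold change of -0.45, and of 17 progenitor identity genes 3 were lower, with a median of -0.16. These 3, named after their values were seen, are Ccnd1, Fgf15 and Pax6 (log2 fold changes -0.51, -0.53 and -0.16). The difference between these lists was not tested. Blood RNA differed as well: 5 of 7 red blood cell markers (Hba-a1, Hba-a2, Hbb-bs, Hbb-bt and Alas2) were lower in knockout (median -1.25), and the 7 summed to 73.9 to 99.6 CPM in knockout pools and 110.5 to 336.4 CPM in wildtype pools, with wildtype pool 3 highest. None of the markers of endothelium (8), pericytes (5), astrocytes (5), microglia (8) or retinal pigment epithelium (7) was called in either direction, at list medians of -0.01, -0.01, -0.04, -0.01 and -0.14. The part of lens and blood RNA in the result on the mitotic genes was not tested beyond leaving out pools.

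Wildtype pool 3 had a length pattern that touches the longest of the 52 genes. Relative to the other wildtype pools, its median log2 difference over all genes of at least 5 CPM was 0.15 for transcripts under 2 kb and -0.22 for those of 8 kb and over, and for the 52 genes it was 0.12 (10 genes) and -0.32 (4 genes). The 4 long genes are Aspm, Cenpf, Cit and Mki67. Over the 52 genes the Spearman correlation between transcript length and this pool's deviation was -0.697, and between length and log2 fold change 0.474, or 0.316 without wildtype pool 3, as a description over genes of the same libraries. With wildtype pool 3 left out, 49 of the 52 genes were lower.

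**Figure D5:**
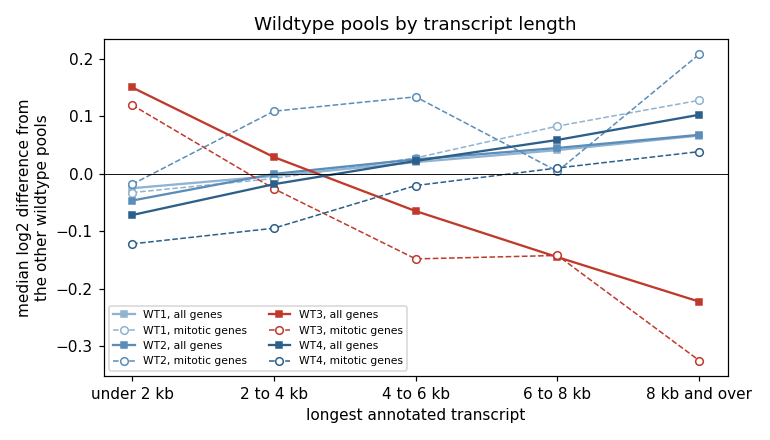
Median log2 difference of each wildtype pool from the other wildtype pools (vertical axis) by length of the longest annotated transcript (horizontal axis), with filled squares and full lines for all genes of at least 5 CPM and open circles and broken lines for the 52 mitotic genes. The red lines of wildtype pool 3 run from 0.15 to -0.22 for all genes and from 0.12 to -0.32 for the mitotic genes, while the others stay flatter or slope the other way.

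With the pools' replicate numbers as a block, 45 of the 52 were lower and none higher, where 2.47% of all genes were lower and 1.73% higher, and the numbers are not said to pair the pools. Library totals were 65.5 M to 86.1 M counts (M, mega) in knockout pools and 73.4 M to 85.9 M in wildtype pools. Opn4 stood at 1.07 to 1.82 CPM in knockout pools and 11.4 to 12.02 CPM in wildtype pools (log2 fold change -3.10, adjusted p = 1.28e-07), so each library matched its label. The retina-defining markers Crx, Nrl, Rcvrn, Otx2, Pax6 and Rbpms were present in all 9 pools. The sources used here do not say whether counting used the strand, and 13 of the 52 genes share exon sequence with a gene on the opposite strand: Nusap1 (with Oip5), Cdca8, Plk1, Ska3 (Sap18), Knstrn, Cenpk (Ppwd1), Kif20a (Cdc23), Kif4 (Pdzd11), Kif18a (Mettl15), Kif22, Cdc20 (Elovl1), Ube2c (Tnnc2) and Prc1 (Rccd1). If counting did not use the strand, reads from the shared stretches cannot be told apart between these 13 genes and their partners. The length of the shared stretches was not measured. Near-identical stretches elsewhere in the transcriptome were found for 8 of the 52 genes, and the most counts any such copy held was 38 over 9 pools, or 0.0905% of those of its gene.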

How the data were processed

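PolyA RNA of 5 Opn4 knockout and 4 wildtype pools of P4 neural retina was sequenced, and the groups were taken from the genotype labels. Reads were trimmed with Trimmomatic 0.39 and quantified with kallisto 0.46.1 on GRCm38, with sleuth 0.30.8 named for the comparison of genotypes, all per the submitters' processing notes. The deposited counts are whole numbers per gene symbol, unnormalised, with 65.5 M to 86.1 M (M, mega) per pool, and the program behind them and its use of strand are not given in the sources used here. The authors' TPM table lists transcripts without identifiers, and its columns sum to 953963 to 1083977, so these deposited values are treated as a score, a rescaled TPM, and were summed per gene symbol. The authors' comparison table gives, per the file headers, p-values and q-values. The authors' effects are natural log values, and the sign at Opn4 shows that they run wildtype over knockout. They were turned to log2 of knockout over wildtype.

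The main test was edgeR 4.0.16 in R 4.3.3 on all 21150 genes kept by filterByExpr, with TMM scaling, the quasi-likelihood F test (two-sided) and Benjamini-Hochberg adjustment over all of them, at a threshold of 0.05. The rescaled TPM were tested with limma-trend 3.58.1 on log2(TPM + 0.5) where at least 4 pools had a TPM of at least 1, where changes of low genes come out too small. Alternatives were other scalings, no filter, a robust fit, DESeq2 1.42.0, other pseudocounts, a replicate block, leaving out pools, and the authors' table. The test per transcript and the narrower promoter count were chosen after seeing the data. The tests were first checked on simulated data. A list's level averages the log2 CPM (prior count 2) of its genes, each set against its mean over the 9 pools. Positions and lengths are from GENCODE M21 on GRCm38, copies from BLAST 2.17.0 (at least 95% identity over at least 50% of the length), and promoters from RefSeq on GRCm38.p6.

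The members and lists were chosen with earlier results of these data known. Values per pool are given for the 2 genes of lowest adjusted p and the gene of highest CPM in each functional group, for each gene that did not pass, and for Aunip, added after its value was seen. Of the other mitotic genes, the 3 called genes with the largest change per list are named, apart from a result that is not reported here. The pools came from separate animals, whose number limits the precision. The p-values set the difference between genotypes against the spread between pools.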

Additional observations from a re-analysis of the deposited data

Results flagged for a closer look

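Pools that stood apart from the others of their genotype were looked for in 140 groups of values by Dixon's test of the gap to the nearest pool, which by chance marks about 1 in 20 groups. Among the 52 mitotic genes, 6 values were marked. In knockout, Nuf2 in pool 5 was 25.1 CPM where the other knockout pools held 23.7 to 24.0 CPM, a gap that is small against the distance to wildtype. In wildtype pool 2, Nusap1 was 88.9 CPM (the other wildtype pools 78.9 to 79.8 CPM) and Prc1 was 118 CPM (102 to 103 CPM). In wildtype pool 3, Mki67 was 279 CPM (374 to 393 CPM), with the length pattern of that pool given above, and Cenpi was 13.8 CPM (11.2 to 11.6 CPM). Cenpk in wildtype pool 1 was 7.55 CPM (9.03 to 9.32 CPM). Nusap1, Nuf2, Cenpi, Cenpk, Prc1 and Mki67 passed the test in every fit that left out a single pool.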

How the results depend on the processing

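Each of the 52 mitotic genes kept a negative log2 fold change in all 21 alternatives, none was higher in any, and the same holds for calls of higher among the 96 other mitotic genes. Leaving out single pools gave 44 to 49 lower genes of the 52, fewest without wildtype pool 2, and 36 to 44 of the 96, fewest without wildtype pool 2. With all pools, 2.25% of all tested genes were lower. In the fits without a single pool 44 of the 52 genes kept their call in each, while Aurka, Hmmr, Cenpe and Cit lost it in at least 1. With the replicate numbers as a replicate block, 45 of the 52 and 41 of the 96 were lower (2.47% of all genes), and Cenpe, Cit and Hmmr lost their call. Deviations of same-numbered pools over all tested genes had correlations of 0.002, -0.0307, 0.00614 and -0.0297. These correlations cannot tell whether same-numbered pools shared a litter or batch, since noise and traits of single pools enter them too. Without knockout pools 1 and 2, 35 of the 96 were lower (1.65% of all genes). On the rescaled TPM without a filter 28 of the 52 were lower, and 12 of the 52 were lower in the authors' table. Of the 97 other genes, 29 were lower on the rescaled TPM at each pseudocount, 18 without a filter and 10 in the authors' table; the cause was not tested. The median log2 fold change over all genes was 0.0012 under DESeq2's size factors and -0.0099 under upper-quartile scaling. Intervals from counting were not needed, since the spread between pools, a median CV of 10.5% in knockout and 7.32% in wildtype, sets the error.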
